A study of Peromyscus californicus with 17 samples.

Results

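The collagen genes of the lung were examined in a monogamous rodent, *Peromyscus californicus*, as the 42 genes of 27786 in the deposited table whose symbol is Col, a collagen type, the letter a and a chain number. Whole lungs came from 17 adult males over a year old of a genetically diverse, captive-bred stock, with 1 library of total RNA per animal, and no genetic change was made in any group. Bonded males (6 animals, labelled B1 to B6) had been paired with a female for about 4 months, and bond-disrupted males (6 animals, BD1 to BD6) had been paired as long, were then separated from the partner and were sampled on day 7 after separation. Virgin males (5 animals, V2 to V6) were of similar age and lived in groups. Animals that share a number in different groups are relatives, mostly siblings, so the groups are not fully independent.

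Collagens are proteins of the extracellular matrix in which 3 chains wind into a triple helix, and each chain has its own gene. Fibrillar collagens form the fibres that carry tension in the walls of airways, vessels and alveoli. Type IV collagens form the sheet under epithelium and endothelium, which in the alveolus lies between air and blood. The remaining collagens link fibres to one another, anchor cells and basement membranes, form beaded microfibrils or other networks, or span the cell membrane. By these roles the genes were set apart as 11 fibrillar, 6 basement membrane and 25 other collagen genes.

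The deposited unit is FPKM, a count of fragments scaled by gene length and by library depth. In this table the length that divided a value was that of a neighbouring row and shifted by 1 row from column to column, so each value was recomputed with the gene's own length. The length was solved from whole reads for 42 of 42 collagen genes. The standard deviation (SD) of log2(FPKM + 1) across the 17 animals had a median of 1.578 over the collagen genes tested as deposited and 0.305 after this step. The depth worked out from the values was 30.8 to 68.2 M reads per animal in the bonded group (median 36.8), 43.9 to 59.4 in the bond-disrupted group (median 46.5) and 38.0 to 44.9 in the virgin group (median 43.9). All FPKM below use own lengths. In whole lung, fewer cells of a type and less RNA per cell cannot be told apart.

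A few chains made up most of the collagen message in these lungs. The highest mean was that of Col3a1, the chain of type III collagen found in distensible tissues, at 102 ± 29.6 FPKM (SD, n = 17). Col4a1 and Col4a2, the paired chains of the common basement membrane network, followed at 82.4 ± 17 and 67.4 ± 14.1 FPKM, with Col1a2 of type I collagen between them at 75.2 ± 13 FPKM. These 4 genes held 55.3% of the summed collagen FPKM, and the first 10 genes held 82.2%. Next came the type VI chains Col6a1 and Col6a2, which form beaded microfibrils close to cells, at 38.6 ± 8.63 and 34.4 ± 7.40 FPKM, and Col1a1 at 34.2 ± 7.17 FPKM.

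**Figure D1:**
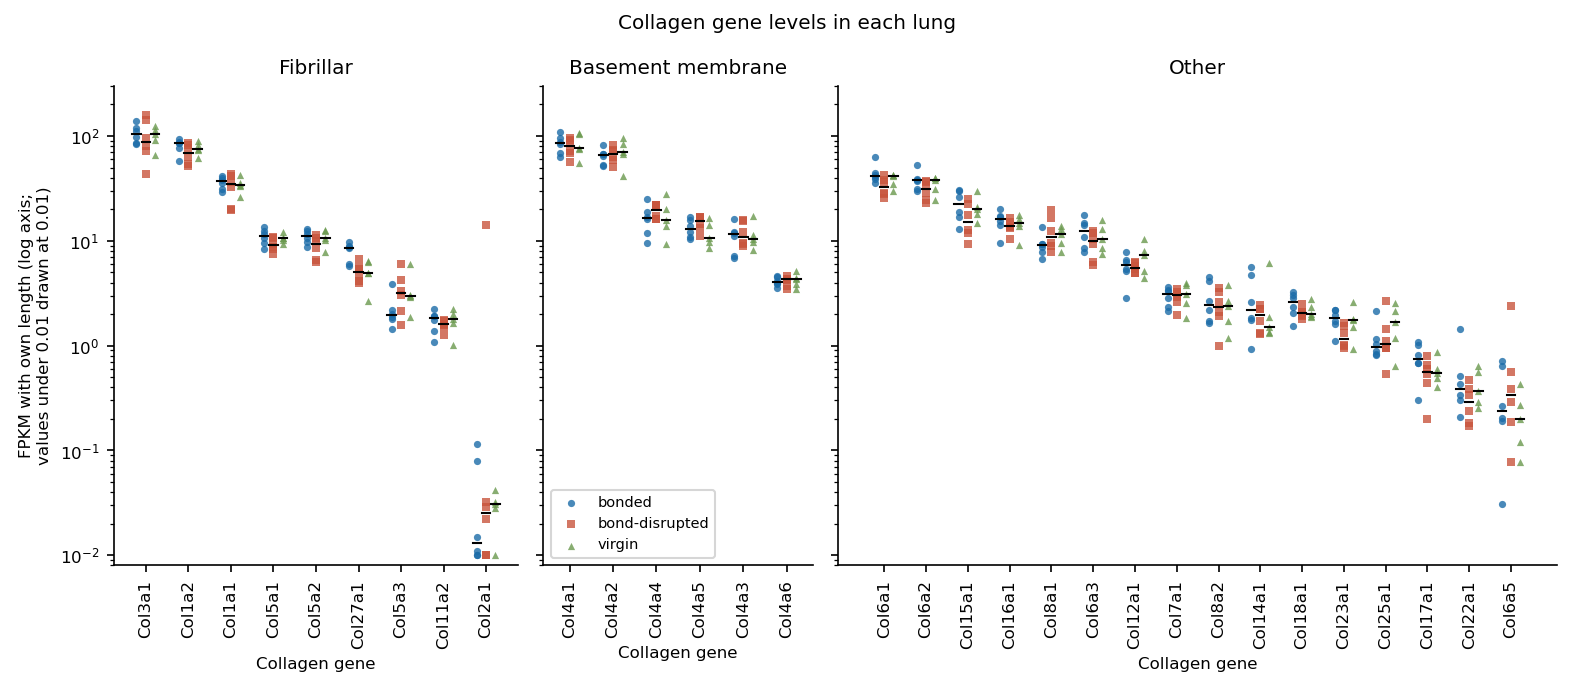
FPKM with own length on a log axis for the 31 collagen genes with 1 FPKM or more in some lung, by class and in order of their mean, with 1 point per animal (circles bonded, squares bond-disrupted, triangles virgin; values under 0.01 drawn at 0.01) and a bar at each group's median. Levels run from Col3a1 (mean 102) to Col6a5 (mean 0.415), the groups lie over one another in each gene, and Col2a1 has 1 point at 14.2 far above the rest.

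Neighbours in this order often changed places from animal to animal. Col3a1 exceeded Col4a1 in 15 of 17 animals, Col4a1 exceeded Col1a2 in 11, and Col6a2 exceeded Col1a1 in only 7 although its mean was slightly higher. Col1a1 was above Col15a1, a collagen of vascular and muscle basement membrane zones, in 17 of 17 animals, at 34.2 against 19.9 FPKM. The steps from Col16a1 (14.6 FPKM) through Col4a5 (13.5), Col4a3 (11.4), Col8a1 (11), Col6a3 (10.9), Col5a1 (10.3) and Col5a2 (10.2) were small beside the spread between animals. In that stretch Col8a1 exceeded Col6a3 in 8 of 17 animals and Col5a1 exceeded Col5a2 in 8.

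At the low end, 11 genes did not reach 1 FPKM in any animal and were not tested. They comprised the fibrillar genes Col11a1 and Col24a1 and 9 of the other collagens. Among these, Col9a1, Col9a2 and Col9a3, which coat cartilage fibrils, had means of 0.014, 0.269 and 0.332 FPKM, and Col10a1, a product of growth plate cartilage, had 0.177. Col9a1 was at 0 reads in 5 of 5 virgin animals and at no more than 10 reads in any lung, and Col26a1 likewise had no more than 10 reads. Among the tested genes, Col17a1, a collagen of epithelial anchoring junctions, Col22a1, Col6a5 and Col2a1 had means below 1 FPKM (0.630, 0.419, 0.415 and 0.864), that of Col2a1 mainly from a single lung.

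By class, fibrillar collagens held 41.0 ± 3.53% of the summed collagen FPKM, basement membrane collagens 33.2 ± 3.85% and the other collagens 25.8 ± 2.66% (SD, n = 17). The fibrillar share was 41.7 ± 2.51% in bonded, 40.3 ± 5.41% in bond-disrupted and 40.9 ± 1.98% in virgin animals. The basement membrane share was 31.3 ± 4.37%, 35.1 ± 3.27% and 33.2 ± 3.34%, respectively. These group means differed by less than the larger SD of each pair, and the ranges overlapped. The lowest fibrillar share (31.8%) and the highest basement membrane share (39.2%) belonged to the same animal, BD2.

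**Figure D2:**
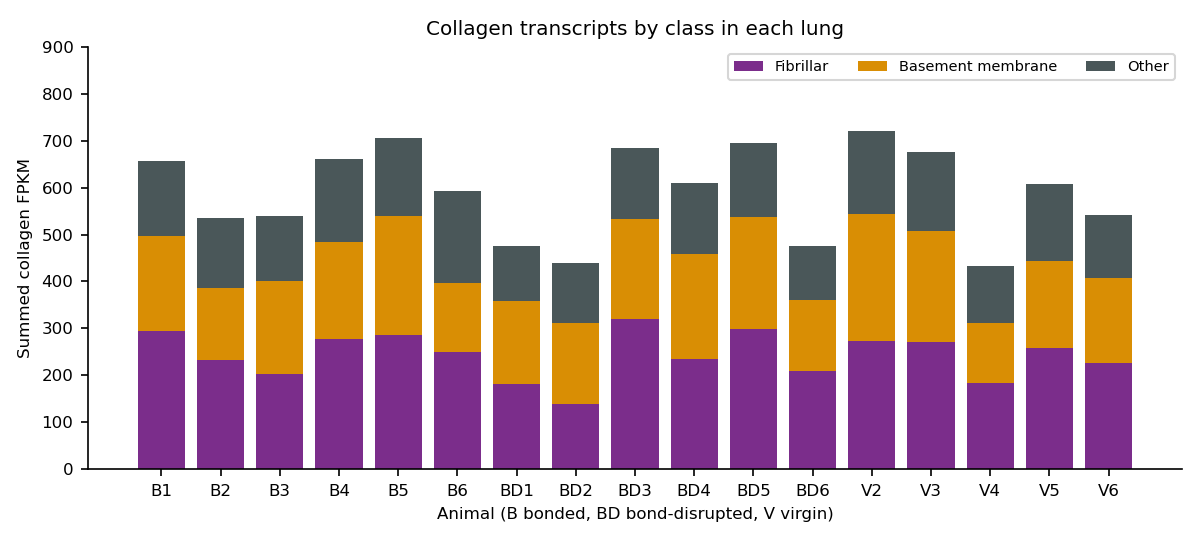
Summed FPKM of the 42 collagen genes in each of the 17 lungs, stacked as fibrillar, basement membrane and other collagens. Totals run from 432.3 in V4 to 721.2 in V2, with the lowest bonded lung at 536.4 and 4 lungs of the other groups below it.

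The summed level was 615.5 ± 70.1 FPKM in bonded (lowest 536.4, median 624.8, highest 706.6), 563.2 ± 114 in bond-disrupted (439.4, 543.0 and 694.6) and 595.9 ± 114 in virgin animals (721.2, 676.0, 432.3, 607.4 and 542.6 in V2 to V6). The upper ends of the groups were alike, but V4 (432.3), BD2 (439.4), BD6 (474.8) and BD1 (475.5) lay below the lowest bonded lung. BD2 and V4 were low in different classes. Relative to the mean of all animals, the log2 level of the tested genes deviated on average by -0.42 for fibrillar and -0.13 for basement membrane collagens in BD2, and by -0.17 and -0.48 in V4. Of the 17 animals, BD6 had the lowest markers of smooth muscle and myofibroblasts (mean log2 deviation -1.08) and of endothelium (-0.55). It also had the highest markers of type 2 alveolar cells (0.62). Its skeletal muscle mean was the highest too (1.74), but only 2 genes of that list were tested. That mean was carried by Acta1 (21.4 FPKM in BD6), whereas Ckm was at 1.06 FPKM there (0.566 to 4.77 across the series). The part of these cell types in its collagen values was not tested.

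The first comparison, bond-disrupted against bonded, bears on whether loss of the partner was accompanied by a change in lung collagen expression. A gene was called at an adjusted p under 0.1 with a fold change of at least 2, in limma with the 3 groups in one fit over 15614 genes and Benjamini-Hochberg adjustment. Of the 31 collagen genes tested, 0 were called, and 0% of all genes tested were. The lowest adjusted p among the collagens was 0.787. At an unadjusted p under 0.05 limma gave 3 collagen genes, Col27a1, Col6a1 and Col23a1, each lower in bond-disrupted animals. That is 9.68% of the collagens beside 5.99% of all genes (3.09% lower and 2.89% higher). The groups of 0 collagen genes were free of overlap, beside 0.295% of all genes.

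**Figure D3:**
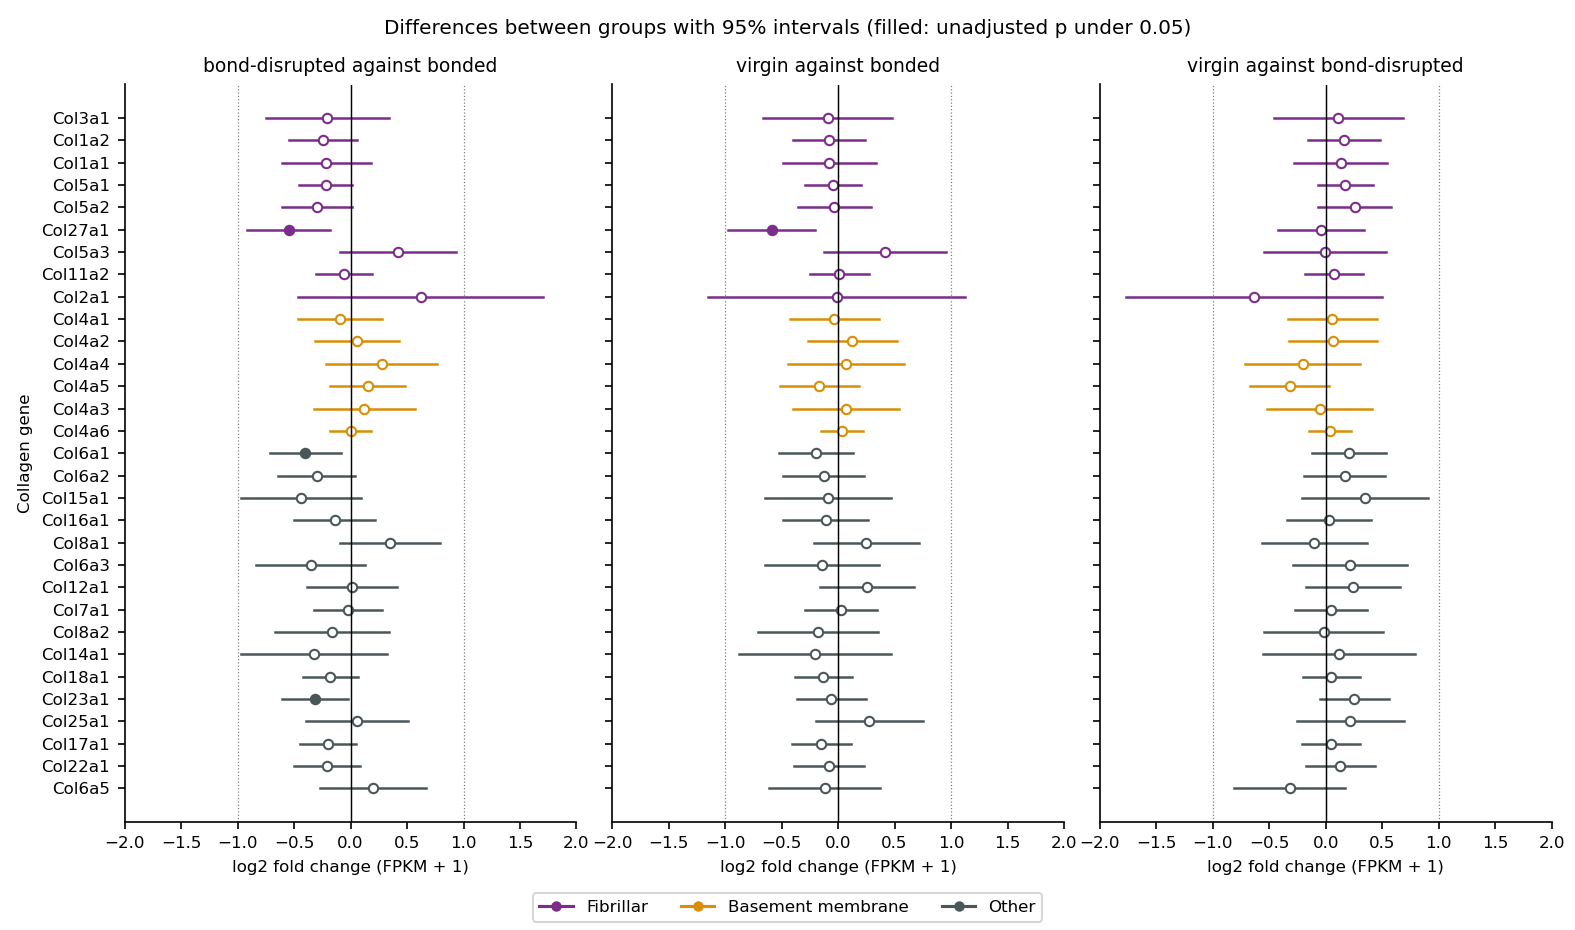
Difference between group means on the log2(FPKM + 1) scale for the 31 collagen genes in each comparison, with 95% intervals from limma, coloured by class (filled points, unadjusted p under 0.05; dotted lines, a difference of 1 either way). Filled points are Col27a1 (-0.55), Col6a1 (-0.40) and Col23a1 (-0.31) in bond-disrupted against bonded and Col27a1 (-0.59) in virgin against bonded, and most intervals lie inside the dotted lines.

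Col27a1 encodes a fibrillar collagen of minor abundance, best known from cartilage. Its level was 5.74 to 9.77 FPKM (median 8.60) in the bonded group and 3.98 to 6.77 (median 5.05) in the bond-disrupted group, while the virgins had 6.46, 4.91, 4.89, 6.33 and 2.66 FPKM in V2 to V6. The 4 highest values in the series were all bonded, but B3 (6.03) and B6 (5.74) lay within the range of the other groups. In limma the difference of bond-disrupted against bonded was -0.55 on the log2 scale (standard error, SE, 0.17; 95% interval -0.91 to -0.18; adjusted p = 0.787; two-sided exact permutation p = 0.0108). For virgin against bonded it was -0.59 (SE 0.18; interval -0.97 to -0.20; adjusted p = 1; exact permutation p = 0.0216). Both differences use the same bonded animals. Leaving out 1 animal at a time moved the Col27a1 difference between -0.63 and -0.49 in the first and between -0.67 and -0.42 in the second, and its unadjusted limma p stayed under 0.05 each time. It also did so with the shared number of relatives as a block, and the bond-disrupted animal was lower in 6 of 6 same-numbered pairs.

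Col6a1, the most abundant type VI chain, ran from 35.9 to 62.9 FPKM over the bonded lungs (median 41.4) and from 25.4 to 42.9 over the bond-disrupted lungs (median 32.5), and was 42.4, 42.4, 29.8, 41.9 and 34.5 in V2 to V6. The bonded range starts where much of the bond-disrupted range ends, with BD3, BD4 and BD5 (37.8, 36.6 and 42.9) inside it. The limma difference of bond-disrupted against bonded was -0.40 (SE 0.15, adjusted p = 0.787, exact permutation p = 0.0368). With number as a block, the difference of Col6a1 was the same, and its unadjusted limma p stayed under 0.05 with all groups in the fit but exceeded it in a fit of the bonded and bond-disrupted animals alone. Its partner chain Col6a2 differed by -0.30 (interval -0.64 to 0.04) and Col6a3 had group means of 12.3 ± 3.87 FPKM in bonded and 9.41 ± 2.79 in bond-disrupted animals (SD, n = 6 each).

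Col23a1, a collagen that spans the cell membrane, was low throughout. It had 1.10 to 2.21 FPKM with a bond (median 1.84), 0.956 to 1.64 after its disruption (median 1.16) and 0.922, 1.5, 2.60, 1.75 and 1.79 in V2 to V6. Its limma difference of bond-disrupted against bonded was -0.31 (adjusted p = 0.832, exact permutation p = 0.0303). Its unadjusted limma p exceeded 0.05 with number as a block, both with all groups in the fit and with these groups alone, and when B1, B4, B6, BD1, BD4 or BD6 was left out, with differences of -0.39 to -0.27 over the animals left out.

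Across the collagens as a whole, 21 of 31 had a lower mean in bond-disrupted than in bonded animals and 10 a higher one, with a median log2 difference of -0.161, beside 0.005 over all genes, of which 48.2% were lower. The lower means came mostly from fibrillar collagens (7 of 9, median -0.213) and the other collagens (12 of 16, median -0.187). Of the 6 basement membrane collagens, 2 had a lower and 4 a higher mean (median 0.091). The classes were not compared by a test. The most abundant fibrillar chains differed by -0.21 (Col3a1, interval -0.75 to 0.34), -0.24 (Col1a2, -0.55 to 0.06) and -0.21 (Col1a1, -0.61 to 0.18). Their values overlapped widely. Col3a1 ran from 84.8 to 138 FPKM (median 104) in the bonded and from 43.3 to 160 (median 88.3) in the bond-disrupted lungs, the bond-disrupted group holding both the lowest and the highest lung, and it was 124, 105, 66.2, 113 and 91.6 in V2 to V6. Collagen genes share cells and animals, so these counts are not independent votes. The filter fixed part of the direction for 4 genes that reached 1 FPKM in 1 group only, Col17a1 and Col22a1 in bonded animals and Col2a1 and Col6a5 in bond-disrupted animals. Over the 27 genes that averaged 1 FPKM or more, which leaves these out, 19 were lower and 8 higher (median -0.161). The median over the collagens tested ran from -0.240 without B3 to -0.072 without BD2 as single animals were left out, was -0.028 over all 42 genes with no filter, and had the other sign (0.047) on FPKM as deposited, where each value is divided by the length of another gene.

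Col1a2 ran from 58.3 to 92.9 FPKM (median 85.3) in the bonded and from 52.0 to 85.7 (median 69.5) in the bond-disrupted lungs, and Col1a1 from 29.4 to 41.8 (median 37.2) and from 19.8 to 43.1 (median 34.5). In both genes BD1 and BD2 were the lowest of the series, near 20 FPKM for Col1a1, and the other 4 bond-disrupted animals lay within or near the bonded range. Col5a1 and Col5a2, whose chains are built into type I fibrils and help set their diameter, differed by -0.22 (exact permutation p = 0.113) and -0.29 (p = 0.0952), with limma intervals reaching 0.01 and 0.02. Higher means were seen for Col5a3 (0.42, interval -0.09 to 0.93) and for Col8a1 (0.35, interval -0.09 to 0.80), a short-chain network collagen of vessel walls. Col15a1 was 22.6 ± 7.39 FPKM in bonded and 16.5 ± 6.25 in bond-disrupted animals (SD, n = 6 each; difference -0.44, interval -0.97 to 0.09). With number as a block, its unadjusted limma p was under 0.05 in a fit of these groups alone, chosen after the data were seen. It was not under 0.05 with all groups in the block fit.

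Single animals moved the count at an unadjusted p under 0.05 in this comparison. It was 9 without B3 (6.4% of all genes at that threshold in the same fit), 7 without BD5 (5.71%), 6 without BD3 (5.08%), 5 without B1 (7.64%), 2 without B4 (4.48%) and 2 without BD1 (8.24%). With limma voom on the recovered reads it was 7 of 39 collagen genes, beside 6.7% of all genes. Without B3 the genes added included Col1a2 (-0.34), Col5a1 (-0.29), Col5a2 (-0.35), Col6a2 (-0.36), Col17a1 (-0.28) and Col18a1 (-0.27). Of these, Col17a1 reached 1 FPKM only in bonded animals, so the filter fixed part of its direction. B3 had the lowest mean level of fibroblast markers in the series (log2 deviation -0.51), and also the lowest cardiac (-1.43) and skeletal muscle markers (-0.61), and their part in the count was not tested. The count of called collagen genes was 0 in each of these settings.

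Markers of cells that make or accompany collagen were compared in the same fit. Of all genes there, 48.2% had lower means in bond-disrupted animals, and 5.99% were at an unadjusted p under 0.05 (3.09% lower and 2.89% higher). Of 10 fibroblast markers, 6 had higher and 4 lower means in bond-disrupted than in bonded animals, with 0 at an unadjusted p under 0.05. Their summed level was 3859 to 5517 FPKM in bonded, 3034 to 4806 in bond-disrupted and 3791 to 5079 in virgin animals. Of 6 smooth muscle and myofibroblast markers, 6 had lower means in bond-disrupted animals, with Myh11 (-0.59), Acta2 (-0.54) and Actg2 (-0.52) at an unadjusted limma p under 0.05 and none called. By exact permutation these had p = 0.0779, 0.0736 and 0.0909. BD6 had the lowest mean of this list in the series (log2 deviation -1.08), and genes of a shared cell type are not independent votes. The summed level of these 6 markers was 594.5 to 1386 FPKM in bonded, 362.4 to 1169 in bond-disrupted and 587.5 to 973.6 in virgin animals. Their part in the lower collagen means was not tested. Of 6 endothelial markers 4 were higher and 2 lower, and of 6 type 1 alveolar markers 4 were higher and 2 lower. Of 5 type 2 alveolar markers tested, 5 had higher means in bond-disrupted animals, with only Sftpb at an unadjusted limma p under 0.05, and of 5 cardiac muscle markers 5 had lower ones, with 0 at that threshold. Sftpb, a surfactant gene that marks lung, was at 1710 to 3808 FPKM across the series, and was higher than in bonded animals by 0.43 in bond-disrupted animals (adjusted p = 0.787 in limma, exact permutation p = 0.00433) and by 0.39 in virgins (adjusted p = 1, exact permutation p = 0.0411). The part of these cell types in the collagen means was not tested.

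In virgin against bonded animals, which differ in partner history and in group or pair housing, 0 of 31 collagen genes were called, beside 0% of all genes. Partner history and housing cannot be told apart here. Limma gave 1 collagen gene at an unadjusted p under 0.05, Col27a1, which is 3.23% of the collagens beside 3.90% of all genes (1.67% lower and 2.23% higher). The count was 2 without B1, beside 4.86% of all genes. The groups overlapped in each collagen gene, whereas 0.589% of all genes were free of overlap. Lower means in virgins were seen for 21 of 31 genes, with a median log2 difference of -0.078 beside 0.006 over all genes, of which 47.8% were lower, and for 17 of the 27 that averaged 1 FPKM or more (median -0.060). The median was nearer 0 without V4 (-0.018), B4 (-0.027), B5 (-0.036) or V6 (-0.047), with no filter (-0.032) and with gene lengths estimated by an additive fit of the log values (-0.044), and had the other sign (0.223) on FPKM as deposited. Differences for the abundant chains were small: -0.09 for Col3a1 (interval -0.66 to 0.48), -0.08 for Col1a1 (-0.49 to 0.34), -0.04 for Col4a1 (-0.43 to 0.36), 0.13 for Col4a2 (-0.27 to 0.52) and -0.20 for Col6a1 (-0.52 to 0.13).

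In virgin against bond-disrupted animals, 0 of 31 collagen genes were called, beside 0.00640% of all genes. At an unadjusted p under 0.05 limma gave 0 collagen genes beside 4.32% of all genes (2.09% lower and 2.23% higher), and the groups overlapped in each, beside 0.275% of all genes free of overlap. The count was 1 without BD2 (7.07% of all genes), BD5 (3.65%), V3 (3.16%) or V4 (4.97%) and 2 without V2 (4.79%). Higher means in virgins were seen for 22 of 31 genes (median 0.065 beside 0.005 over all genes, of which 48.1% were lower), and for 20 of the 27 that averaged 1 FPKM or more (median 0.073). The median was 0.163 without V4, 0.121 without BD5, 0.099 without V6 and 0.034 without V3, 0.138 with voom, and had the other sign (-0.026) on FPKM as deposited. The lowest limma p was that of Col4a5, a chain of the specialised alveolar and kidney basement membrane, with 11.2 to 17 FPKM in bond-disrupted animals (median 15.5) and 16.5, 14.2, 9.74, 10.7 and 8.50 in V2 to V6 (difference -0.32, adjusted p = 0.95 in limma, exact permutation p = 0.0952). This comparison shares its bond-disrupted animals with the first and its virgins with the second.

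The data limited how large a collagen change could have gone unseen. For the 18 genes that averaged 5 FPKM or more, the 95% intervals on the log2(FPKM + 1) scale ran from -0.97 to 0.80 at their widest for bond-disrupted against bonded, from -0.97 to 0.72 for virgin against bonded and from -0.72 to 0.91 for virgin against bond-disrupted. Over the 31 genes, intervals extended to either side by a median of 0.372 for bond-disrupted against bonded and 0.392 for each of the others. The added 1 shrinks differences of genes near or below 1 FPKM, so for Col17a1, Col22a1, Col6a5 and others of low level these intervals do not bound the fold change. The absence of calls therefore does not show that the groups had equal collagen expression.

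Of the 6 basement membrane genes, 0 were at an unadjusted limma p under 0.05 in each comparison. The shares of all genes were 5.99% for bond-disrupted against bonded, 3.90% for virgin against bonded and 4.32% for virgin against bond-disrupted. With 6 genes, a count of 0 does not set the class apart from these shares. Col4a1 had 63.3 to 109 FPKM in bonded (median 85.6), 56.4 to 96.5 in bond-disrupted (median 80.9) and 107, 104, 54.7, 76.7 and 75.1 in virgin animals V2 to V6. Col4a2 had 51.4 to 82.6 (median 65.7), 50.5 to 82.7 (median 67.5) and 96.4, 83.9, 41.6, 67.0 and 70.4 FPKM. In both genes V2 was at or near the top and V4 at the bottom, within the same group. The alveolar chains Col4a3, Col4a4 and Col4a5, which replace part of the common network in thin barriers and are mutated in Alport syndrome, had means of 11.4, 17.7 and 13.5 FPKM. Col4a4 ranged from 9.47 to 24.8 in bonded and from 16.2 to 22.1 in bond-disrupted animals, and was 28.2, 20.3, 9.34, 15.8 and 14 in the virgins. Col4a6 was the lowest of the 6 (4.14 ± 0.47 FPKM) and the steadiest collagen tested, with an SD of log2 level of 0.131, at percentile 19.4 of all genes tested.

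Variation between animals was on the whole wider for collagens than for other genes. The median SD of log2(FPKM + 1) was 0.305 for the 31 collagen genes and 0.212 for all genes tested, and among genes with a mean of at least 5 FPKM it was 0.318 for 18 collagens and 0.182 for 9663 genes. Col3a1 (SD 0.455, percentile 87.0), Col15a1 (0.477, 88.5) and Col14a1 (0.547, 92.1) were among the more variable, and Col5a1 (0.206, 48.1) was close to the middle. These figures are a description, since genes are not independent replicates.

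Levels of most of the chain pairs examined moved together across animals, in pairs that assemble and also in Col4a1 and Col4a3, chains of different networks (r = 0.843). Pairs of other genes were not examined. Correlations of log2(FPKM + 1) were taken across the 17 animals for 12 pairs of chains, with 100000 permutations each and adjustment over the 12, and 3 further pairs with a gene under 1 FPKM on average were left out. Relatives among the animals make them less than fully independent. For Col6a1 and Col6a2, Pearson r was 0.959 and Spearman rho 0.931 (permutation p = 1e-05 for each, the smallest the permutations can give), and r was 0.925 without the 2 animals farthest from the median. For Col4a1 and Col4a2, r was 0.929 and rho 0.934 (permutation p = 1e-05 for each), with 0.891 without such animals. For Col4a3 and Col4a4, r was 0.894 (permutation p = 1e-05) and rho 0.865 (p = 3e-05), with 0.860 without them. The adjusted p was 4e-05 for each of these r values.

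**Figure D4:**
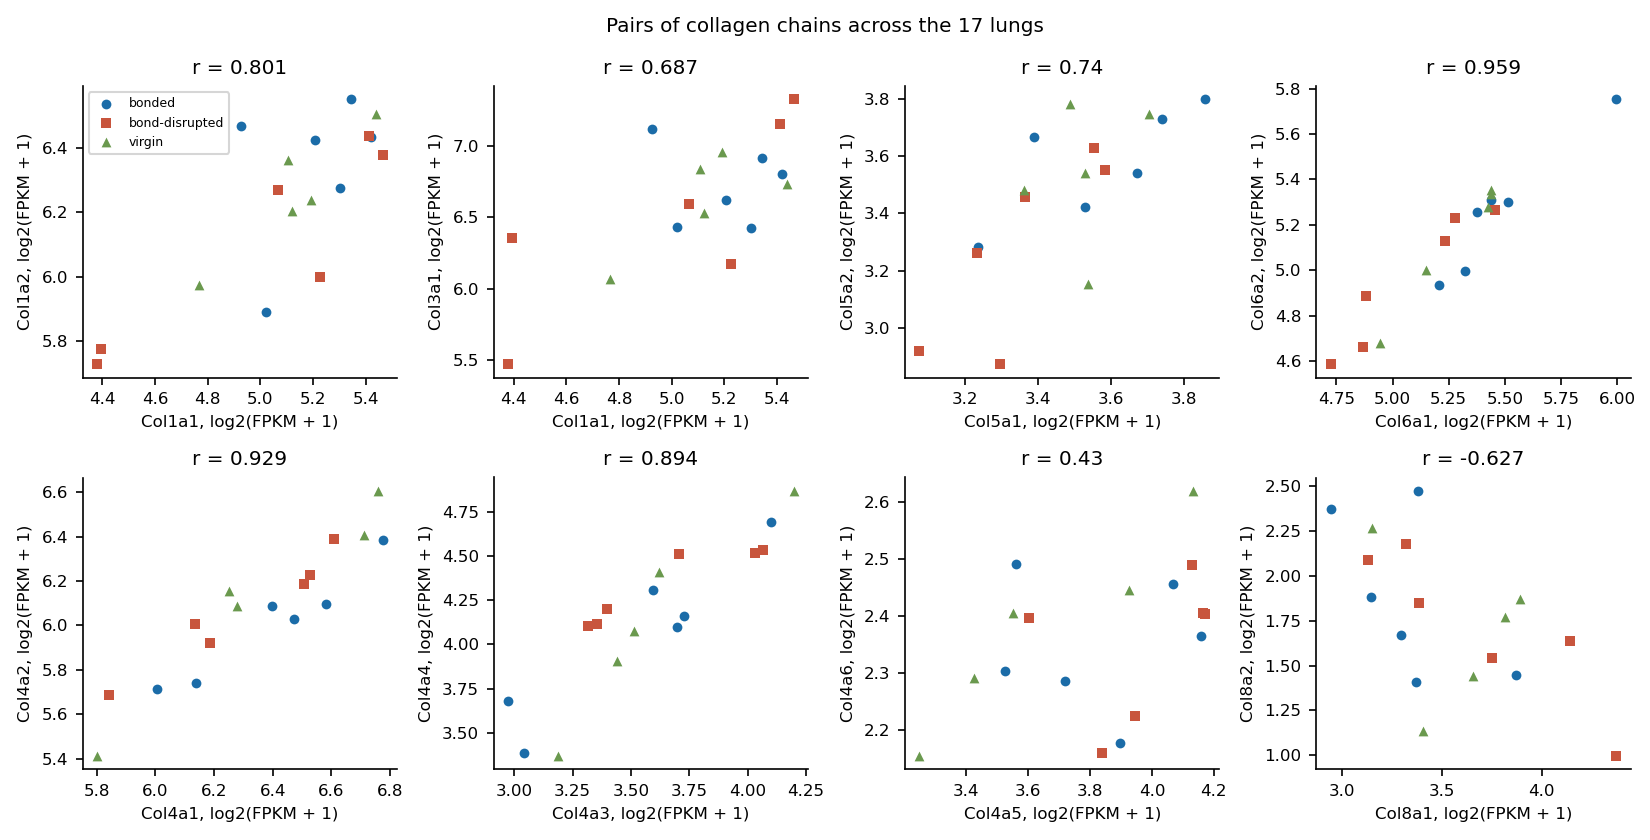
Log2(FPKM + 1) of 8 pairs of collagen chains, 1 point per lung, by group (circles bonded, squares bond-disrupted, triangles virgin), with Pearson r over 17 animals above each panel. Col6a1 and Col6a2 (0.959) and Col4a1 and Col4a2 (0.929) lie close to a line, Col4a5 and Col4a6 (0.43) scatter, and Col8a1 and Col8a2 run in opposite directions (-0.627).

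Type I collagen is built from chains of Col1a1 and Col1a2, and their levels correlated at r = 0.801 (permutation p = 0.00022, adjusted 0.00044) and rho = 0.691 (p = 0.00278). Without BD1 and BD2, the low lungs, r was 0.570 (permutation p = 0.0266). Within groups it was 0.395 over the bonded and 0.909 over the bond-disrupted animals (n = 6 each). Col1a1 and Col3a1, chains of separate types that mix in fibres, gave r = 0.687 (permutation p = 0.00237, adjusted 0.00355) and rho = 0.569 (p = 0.0183). Without BD1 and BD2 this r was 0.489 (permutation p = 0.0645), and within the bonded animals it was -0.158 (n = 6), so its passing the threshold rested on those 2 lungs. Col5a1 and Col5a2 gave r = 0.740 (permutation p = 0.00063) and rho = 0.723 (p = 0.00139), and r = 0.601 (p = 0.0161) without BD1 and B1.

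Further type IV and VI pairs were also correlated. Col4a1 and Col4a3, of different networks, gave r = 0.843 (permutation p = 3e-05) and rho = 0.897 (p = 1e-05). Col4a4 and Col4a5, which join one network, gave r = 0.785 (permutation p = 0.00014) and rho = 0.811 (p = 0.00013). For Col6a1 and Col6a3, r was 0.643 (permutation p = 0.00516) and rho 0.694 (p = 0.00277), and r was 0.777 without B6 and BD6. Not every pair followed. Col4a5 and Col4a6 gave r = 0.430 (permutation p = 0.0851, adjusted 0.0851) and rho = 0.417 (p = 0.0977), and the cross-class pair Col1a1 and Col4a1 gave r = 0.471 (permutation p = 0.0544, adjusted 0.0594) and rho = 0.502 (p = 0.0416, adjusted 0.0454). In all, 10 of the 12 pairs had an adjusted p under 0.05 for r.

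The 2 chains of type VIII collagen moved against each other. Col8a1 was 6.68 to 13.7 FPKM in bonded (median 9.06), 7.75 to 19.7 in bond-disrupted (median 11) and 11.6, 13.1, 7.88, 13.8 and 9.61 in virgin animals, while Col8a2 was 1.66 to 4.56 (median 2.43), 0.996 to 3.52 (median 2.35) and 1.71, 2.41, 3.81, 2.65 and 1.2 FPKM. BD2 had the highest Col8a1 and the lowest Col8a2, and B4 the lowest Col8a1 with Col8a2 at 4.17. Their correlation was r = -0.627 (permutation p = 0.00724, adjusted 0.00869) and rho = -0.615 (p = 0.0101, adjusted 0.0134), with -0.568 within bonded and -0.904 within bond-disrupted animals (n = 6 each). Without BD2 and BD5 it was -0.512 (permutation p = 0.0537, n = 15), so it did not pass 0.05 without those lungs. Their effect was not told apart from that of fewer animals.

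Ratios of partner chains differed in how tightly they were held. The ratio of Col6a1 to Col6a2 was 1.12 ± 0.069 (SD, n = 17), a coefficient of variation of 6.18%, and that of Col4a1 to Col4a2 was 1.23 ± 0.099 (8.07%). As background, trimers of this network hold more Col4a1 than Col4a2 chain. Col1a2 exceeded Col1a1 in 17 of 17 animals, with a ratio of 2.24 ± 0.325. The type I trimer itself holds more Col1a1 than Col1a2 chain. Next in coefficient of variation stood Col4a4 to Col4a3 (1.56 ± 0.211, 13.5%), Col1a2 to Col1a1 (14.5%), Col4a1 to Col4a3 (7.43 ± 1.13, 15.2%) and Col5a1 to Col5a2 (1.03 ± 0.157, 15.3%). Wider spreads were seen for Col4a5 to Col4a6 (3.26 ± 0.635, 19.5%), Col4a5 to Col4a4 (0.790 ± 0.160, 20.3%), Col6a1 to Col6a3 (3.72 ± 0.835, 22.5%) and Col3a1 to Col1a1 (2.99 ± 0.720, 24.1%). The widest of the 11 was Col8a1 to Col8a2 (5.56 ± 4.29, 77.3%), from 1.60 in B4 to 19.8 in BD2. A ratio depends on the gene lengths used and on library bias along each transcript, so its absolute value is less sure than its spread.

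Col2a1, the fibrillar collagen that defines cartilage, was high in a single lung. It had 14.2 FPKM from 3717 reads in BD6 and no more than 0.115 FPKM, or 30 reads, in each of the other 16 animals, with 0 reads in B2, BD3 and BD5. Its difference of bond-disrupted against bonded was 0.62 with an interval of -0.46 to 1.71 (adjusted p = 0.88 in limma), so 1 library set the estimate. Other collagens of cartilage were not at comparable levels in that lung. Col11a1 was highest there but at 0.066 FPKM, Col9a1 was at 0.025 and Col11a2, at 1.77, lay inside the range of the series (1.01 to 2.22).

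**Figure D5:**
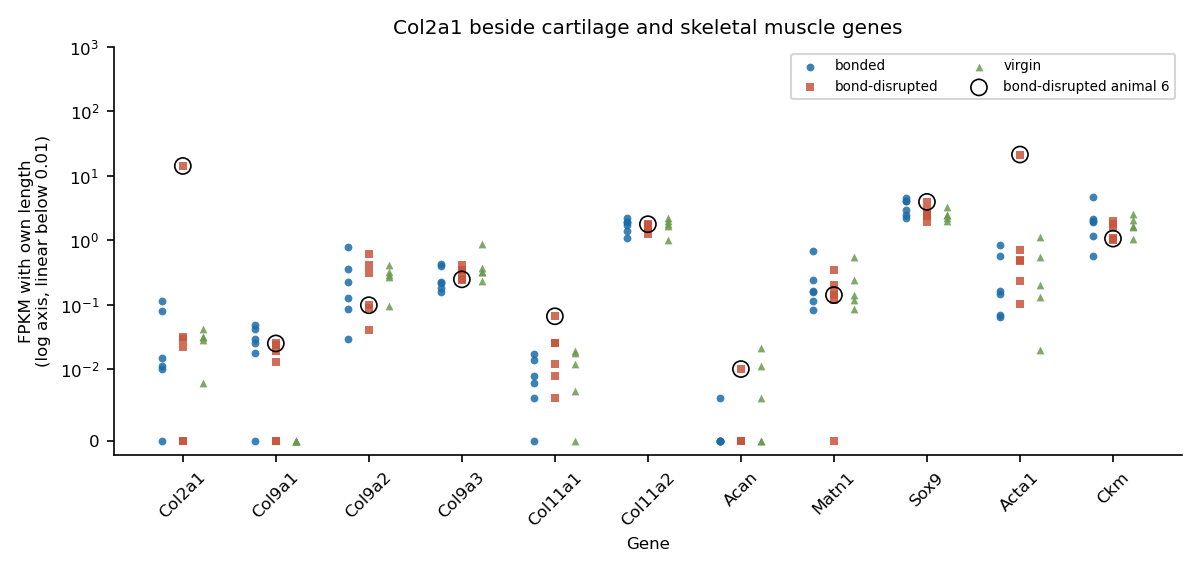
FPKM with own length (log axis, linear below 0.01) of Col2a1, other cartilage collagens, cartilage markers and 2 skeletal muscle genes in each lung, with BD6 ringed. BD6 stands at 14.2 for Col2a1 and 21.4 for Acta1, and lies among the other lungs for Col9a2, Col9a3, Col11a2, Matn1 and Ckm.

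Of 10 cartilage markers, 9 had recovered values and 4 of them (Acan, Matn1, Snorc and Ucma) stayed under 1 FPKM in each lung. In BD6 Acan, the main cartilage proteoglycan, was at 0.010 FPKM, Matn1 at 0.141 and Sox9, a regulator of Col2a1 also expressed in airway epithelium, at 3.94 beside 1.90 to 4.53 across the series. The summed level of the list was 10.3 to 22.5 FPKM in bonded, 8.0 to 25.2 in bond-disrupted and 12.8 to 24.8 in virgin animals. The muscle actin gene Acta1 was also highest in BD6, at 21.4 FPKM beside at most 1.14 in any other lung, whereas Ckm of skeletal muscle was 1.06 there and 0.566 to 4.77 across the series.

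Genes that make, cross-link, bind and degrade collagen were examined as a list of 45, of which 39 were tested. For bond-disrupted against bonded, 22 had higher and 17 lower means (median 0.023), and 1 was at an unadjusted limma p under 0.05 (2.56% of the list beside 5.99% of all genes). This was Adamts14, a procollagen N-proteinase, at -0.32 (interval -0.63 to -0.01, adjusted p = 0.834, exact permutation p = 0.0779). For virgin against bonded, 19 were higher and 20 lower (median -0.004) with 0 at that threshold, beside 3.90% of all genes. For virgin against bond-disrupted, 20 were higher and 19 lower (median 0.003), and 2 were at that threshold (5.13% of the list beside 4.32% of all genes), a share near that of all genes. These were the lysyl hydroxylase Plod2 (-0.59, exact permutation p = 0.0195) and the collagen uptake receptor Mrc2 (0.35, exact permutation p = 0.0693), each at an adjusted p of 0.95 in limma. The list as a whole was centred on 0 in each comparison, and 0 of its members were called.

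Plod2, which hydroxylates lysines that later form cross-links, was 5.35 to 14 FPKM in bonded animals, 6.74 to 14.4 in bond-disrupted animals and 6.05, 8.93, 4.76, 7.42 and 6.63 in V2 to V6. Mrc2 was 27.7 to 40.6, 24.4 to 37.9 and 50.6, 42.7, 28.8, 44.6 and 42.6 FPKM. For Plod2, V3 and V5 lay within the bond-disrupted range and the other virgins below it, and for Mrc2, V4 lay within it and V2, V3, V5 and V6 above it. Lox, which starts collagen cross-linking, Serpinh1, the collagen chaperone, and P4ha1, a prolyl hydroxylase subunit, differed between bond-disrupted and bonded animals by 0.03 (interval -0.43 to 0.50), -0.21 (-0.53 to 0.11) and 0.02 (-0.13 to 0.18).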

How the data were processed

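Lung RNA of 17 animals was sequenced with a directional kit. The authors deposited FPKM, 1 column per animal, and 0 columns were left over. Per the submitters' processing notes, tools were FastQC, Trim Galore 0.4.5, STAR 2.7.2, SAMtools 1.5 and featureCounts (Subread 1.5.3), and the build is not given in the sources used here. Depths and lengths were solved as the values at which FPKM becomes whole reads. Of the lengths, which in the recovered scheme number 1 more than the genes, 26030 were solved, 285 estimated and 1472 not settled, and 25951 genes had all values. Of 352642 values, 97.8% lay within 3% of a read of a whole number. Of 1524 small RNA genes, 1495 had the RefSeq length. Lengths were chosen to make reads whole, and RefSeq lengths of small RNA genes set the first depths. Both figures are therefore partly built in and are not independent checks. Each column divides a gene by another length, so a wrong length would shift 1 animal's value in each of several neighbouring genes. It would also rescale the gene it belongs to in all 17 animals.

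Genes that reached 1 FPKM in any animal were tested as log2(FPKM + 1) in limma 3.58.1 (R 4.3.3), two-sided, without a variance trend, so fold changes of low genes are understated. Groups follow the sample labels. The p-values measure the spread between animals, some of which are relatives. Single genes were also tested by exact permutation, added after the data were seen. Tests were checked on simulated data for bond-disrupted against bonded. Of 98 genes changed 2-fold, 98% had an adjusted p under 0.1 but 22.4% met the fold limit as well (median fitted log2 fold 0.903). Of 98 genes changed 4-fold, 99% met both. Every simulated gene had the same dispersion, the simulated animals were unrelated and the changed genes had many reads. The collagens varied more between animals than genes in general, so these shares are not the power for them. Alternatives were the lengths, the pseudocount, filters, normalization, variance trend, groups in the fit, voom on recovered reads, a block for number (also without virgins, added after the data were seen), and leaving out each animal.

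The collagen genes, their classes, the chain pairs and the marker and handling lists were chosen with earlier results of these data known. Genes named with values are the 3 highest of each class, the chains of the pairs and those at an unadjusted p under 0.05 in any comparison, and others were named after their values were seen.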

Additional observations from a re-analysis of the deposited data

Results flagged for a closer look

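Within the groups, 93 sets of values (31 collagen genes in 3 groups) were checked for a lung set apart from the rest of its group by Dixon's test, which chance flags in about 1 in 20 groups, and 5 were set apart. Col2a1 was 14.227 FPKM in BD6, with the other bond-disrupted lungs at 0 to 0.032. Col6a5 was 2.403 FPKM in BD3, with the others at 0.077 to 0.556. Col14a1, a collagen that associates with fibril surfaces, was 6.108 FPKM in V3, with the other virgins at 1.329 to 1.891. In B5, Col22a1 was 1.431 FPKM (others 0.209 to 0.515) and Col25a1 was 2.158 FPKM (others 0.808 to 1.162).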

How the results depend on the processing

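The count of called collagen genes was 0 in each comparison under each alternative. The counts at an unadjusted p under 0.05 moved more. Shares of all genes at that threshold in the same fit are in brackets. For bond-disrupted against bonded (3) the count was 7 of 39 with voom (6.7%) and 2 to 9 leaving out each animal (4.19% to 8.24%). For virgin against bonded (1) it was 2 of 31 with lengths from an additive fit (4.44%), 3 of 42 with no filter (4.12%) and 1 to 2 leaving out each animal (3.08% to 6.07%). For virgin against bond-disrupted (0) it was 4 of 39 on FPKM as deposited (6.76%) and 1 of 31 with additive lengths (4.52%). It was also 1 of 42 with no filter (4.23%), 1 of 39 with voom (4.52%) and 0 to 2 leaving out each animal (3.16% to 7.07%). On FPKM as deposited, 0 of 12 chain correlations passed, against 10 with own lengths and 8 to 12 leaving out each animal, and the difference reversed for Col6a1 (0.549) and Col23a1 (0.361) in bond-disrupted against bonded and for Col27a1 (0.624) in virgin against bonded. That alternative keeps the length of another gene in each value. With additive lengths the unadjusted p of Col6a1 and Col23a1 exceeded 0.05. With number as a replicate block the counts were 2, 1 and 0 (5.73%, 4.09% and 3.86% of all genes), and the unadjusted p of Col23a1 exceeded 0.05. Quantile normalization gave 2 for bond-disrupted against bonded (5.41%), with Col23a1 over 0.05. FPKM as deposited gave 3 of 39 there (6.82%), with Col27a1 over 0.05. Of the same-numbered pairs, which the study describes as relatives, 5 of 6 bonded and bond-disrupted pairs had a correlation of deviations above 0.1 (0.0824 to 0.417), and 0 of 10 pairs with a virgin did. A block fit of the bonded and bond-disrupted animals alone, chosen after seeing the data, also gave 2 (5.99% of all genes), Col27a1 and Col15a1, with Col6a1 and Col23a1 over 0.05. As a hint from the data, 8 of 17 animals correlated best with a same-numbered animal of another group. Between bonded and bond-disrupted pairs, Col23a1 was lower in bond-disrupted animals in 5 of 6 and Col6a1 in 4.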

Other observations

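Ratios of partner chains were also compared between groups, a choice made after the data were seen, by two-sided exact permutation tests of the mean log2 ratio over 11 ratios and 3 comparisons, 33 tests in all. The ratio of Col4a1 to Col4a2 was 1.23 to 1.41 in bonded animals, 1.09 to 1.25 in bond-disrupted animals and 1.07 to 1.31 in virgins. The log2 ratio was lower in bond-disrupted than in bonded animals by 0.16 (-0.16, exact permutation p = 0.0108), with 4 of 6 bond-disrupted animals below the lowest bonded animal, and leaving out single animals gave p from 0.00866 to 0.0195, and additive lengths 0.0216. Among same-numbered relatives, the bond-disrupted animal had the lower ratio in 6 of 6 pairs. For virgin against bonded, which shares the bonded animals, the difference was also -0.16 (exact permutation p = 0.0368, from 0.0143 to 0.0635 leaving out single animals and 0.0844 with lengths from an additive fit). For Col4a5 to Col4a6, virgins were at 2.46 to 3.21 and bond-disrupted animals at 2.62 to 3.97 (difference -0.39, exact permutation p = 0.0216, from 0.00794 to 0.0476 leaving out single animals and 0.0801 with additive lengths). After adjustment over the 33 tests the lowest value was 0.357, so none passed.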
